A study of Mus musculus with 2 samples.

Results

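The genes described here encode the receptors of the vascular endothelial growth factors (VEGF) and the angiopoietins, with their co-receptors and a phosphatase that acts on them. There were 8 of them, chosen by name and known role from 21887 protein-coding genes, not by a threshold on their values: Kdr, Flt1, Flt4, Nrp1, Nrp2, Tek, Tie1 and Ptprb. The choice was made with earlier results of these data known. Open chromatin was measured in single nuclei of mouse liver by droplet ATAC-seq, in which a transposase cuts accessible DNA and each DNA piece between 2 cuts, a fragment, carries the barcode of its nucleus. The series holds 2 libraries, 1 of a Spta sph/sph mouse and 1 of its Spta wt/wt littermate. Both mice were male, untreated and 8 to 10 weeks old, and the material in both was non-parenchymal liver cells enriched with magnetic beads against F4/80, a surface protein of macrophages. Barcodes end in 1 or 2, here called library 1 and library 2, and which ending belongs to which mouse is not stated in the sources used here. The libraries are therefore described side by side without reference to genotype, and a single library of each kind allows no test across animals. All intervals are exact 95% intervals that cover counting error only.

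VEGF receptors are tyrosine kinases of the endothelial surface: Kdr (VEGFR2) carries most of the growth and permeability signal of VEGF-A, Flt1 (VEGFR1) binds VEGF-A, VEGF-B and placental growth factor, and Flt4 (VEGFR3) is the receptor of VEGF-C and VEGF-D, best known from lymphatic vessels. The neuropilins Nrp1 and Nrp2 bind both VEGF and the class 3 semaphorins. Tek (Tie2) is the receptor of the angiopoietins, Tie1 is its partner without a known high-affinity ligand of its own, and Ptprb (VE-PTP) is a receptor phosphatase that removes phosphate from Tek. The liver sinusoid is lined by endothelial cells with open pores, and they share the sinusoid with Kupffer cells, the resident macrophages, and with stellate cells.

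Library 1 held 609 nuclei after filtering and library 2 held 562, with medians of 13772 and 13316 fragments per nucleus. Each library was clustered with the windows of the 8 genes left out, and clusters were named from marker lists that hold none of the 8. This gave 129 endothelial-like nuclei in library 1 and 141 in library 2, and the other cells were 480 and 421 nuclei, mostly Kupffer-like (326 and 233). The rest were stellate or fibroblast-like (69 and 29), a cluster that scored highest for monocyte markers with T or NK or neutrophil markers second (57 and 88), hepatocyte-like nuclei in library 1 (28) and a cluster without a name in library 2 (71). The 17 endothelial markers together gave 2370 CPM in endothelial-like and 690.9 CPM in other cells of library 1, and 1541 and 529.9 CPM in library 2, with no marker at 0. CPM scales the fragments of a window by all fragments of the class. Summed over the 11 Kupffer markers, endothelial-like cells had 124.9 CPM in library 1 and 125.8 CPM in library 2, and Kupffer-like cells had 905.2 and 599.0 CPM. Library 2 stands apart: its nuclei had a median of 53.9% of fragments in peaks against 72.5% in library 1. Fragments heaped up by single nuclei in 20 kb bins, called pile-ups here, made up 13.7% of endothelial-like fragments in library 2 and 0.921% in library 1. No barcode was called as a nucleus in both libraries, yet all 637 called barcodes of library 1 also occurred uncalled in library 2, with 1.28% of their own number of fragments. Of those fragments in library 2, 56.2% had the same coordinates as a fragment of the same barcode in library 1. In the other direction, 503 of the 575 called barcodes of library 2 occurred in library 1, with 0.039% of their own number of fragments.

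The receptor genes were more accessible in endothelial-like cells than in the other liver cells of both libraries. Over the gene body with 2 kb on both sides, 7 of the 8 genes in library 1 and 6 of the 8 in library 2 were at least 2-fold higher in endothelial-like cells, relative to the median gene and among genes with at least 50 fragments. Of all genes tested, 7.92% passed the same 2-fold limit in library 1 and 7.22% in library 2. In both libraries at once 6 of the 8 passed, beside 3.39% of all genes, and none was 2-fold lower, beside 11.4% and 12.5%. All 8 genes passed the minimum of fragments in both libraries. The classes come from fragments of the same nuclei outside these windows, so these ratios are a description and not a test.

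Among the VEGF receptor kinases, Kdr had 320.0 CPM in endothelial-like and 33.3 in other cells of library 1, and 146.5 and 32.9 in library 2. The log2 ratio was 3.29 (3.07 to 3.51) in library 1 and 2.15 (1.92 to 2.37) in library 2. Kdr was thus high in the endothelial-like class of both libraries, with a like level in the other cells of both. Flt1 had 327.9 CPM in endothelial-like and 50.4 in other cells of library 1, and 189.7 and 56.4 in library 2, with log2 ratios of 2.73 (2.54 to 2.92) and 1.74 (1.55 to 1.93). Of its 404 endothelial-like fragments in library 2, 15.6% lay in pile-ups, and a single nucleus held 64. With pile-ups left out, the ratio of Flt1 in library 2 was 1.54 (1.34 to 1.74). Flt4 had 198.1 against 16.4 in library 1 and 123.0 against 23.7 in library 2, and its log2 ratios were 3.62 (3.32 to 3.93) and 2.37 (2.11 to 2.63). The ratio of Flt4 was the highest of the 3 receptor kinases in both libraries, and its interval overlapped that of Kdr in each. Of the 237 fragments of Flt4 in other cells of library 2, 38.4% lay in pile-ups. With pile-ups left out, Flt4 was at 3.05 (2.76 to 3.36) in library 2 and Kdr at 2.19 (1.96 to 2.42), without overlap. The intervals did not overlap without flanks in library 1 either, at 3.93 (3.61 to 4.28) for Flt4 and 3.325 (3.10 to 3.55) for Kdr. Other settings did not separate the genes. With classes from own marker fragments in library 1, Flt4 was at 2.78 and Kdr at 2.75, with overlapping intervals. With nuclei thinned to 5000 fragments in library 2, Flt4 at 2.503 lay below Kdr at 2.571, again with overlap.

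The neuropilins had the smallest ratios of the group in library 1, and in library 2 Nrp1 and Tek had. Nrp1 had 295.6 CPM in endothelial-like and 151.7 in other cells of library 1, and 167.6 and 102.7 in library 2. Its log2 ratios of 0.99 (0.83 to 1.14) and 0.70 (0.52 to 0.88) lay under the 2-fold limit, with intervals above the median gene. In library 1 Nrp1 passed the limit under several settings, at 1.17 with classes from own marker fragments and at 1.15 without flanks or without doublet-marked cells, and in library 2 it was 0.26 (-0.12 to 0.62) with nuclei thinned to 5000 fragments. Of the 357 endothelial-like fragments of Nrp1 in library 2, 12.3% lay in pile-ups. With pile-ups left out, its ratio there was 0.57 (0.38 to 0.75). Nrp2 had 249.3 against 73.6 in library 1 and 138.0 against 65.0 in library 2, with log2 ratios of 1.79 (1.60 to 1.97) and 1.08 (0.87 to 1.28). Cells outside the endothelium also carried open chromatin at Nrp1. For this, nuclei were thinned to 5000 fragments and those with fewer were left out. That removed 25 endothelial-like and 55 other nuclei of library 1, and 15 and 38 of library 2. After thinning, 75.0% of 104 endothelial-like and 49.9% of 425 other nuclei of library 1 had a fragment in the window. In library 2 these shares were 43.7% of 126 and 33.4% of 383. Without thinning, over all nuclei of each class, they were 76.0% and 73.5% in library 1, and 62.4% and 60.1% in library 2.

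Ptprb and Tie1 had the largest ratios of the group in library 1. Tie1, the shortest gene of the group at 18.7 kb, had 91 fragments in endothelial-like and 29 in other cells of library 1, and 78 and 73 in library 2. That is 55.5 against 3.72 CPM in library 1 and 36.6 against 7.31 in library 2, with log2 ratios of 3.91 (3.31 to 4.58) and 2.32 (1.84 to 2.80). Ptprb had 381.5 against 20.5 CPM in library 1 and 159.1 against 32.4 in library 2, and its log2 ratio of 4.24 (3.99 to 4.50) in library 1 ranked 10 among 15827 genes tested. In library 2 its log2 ratio was 2.29 (2.06 to 2.51), at rank 100 among 16968 genes tested.

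The share of nuclei with a fragment in the window, thinned to 5000 fragments each, was higher in endothelial-like than in other cells for all 8 genes in both libraries. After thinning, 81.7% of endothelial-like and 9.88% of other nuclei of library 1 had a fragment at Ptprb, and 45.2% and 9.40% in library 2. Without thinning these shares were 88.4% and 21.3% in library 1, and 64.5% and 24.2% in library 2. For Kdr the thinned shares were 71.2% and 12.7% in library 1, and 45.2% and 11.7% in library 2, with 79.8% and 31.3%, and 69.5% and 29.2%, before thinning. Endothelial-like nuclei had medians of 10902 and 11462 fragments in libraries 1 and 2, and Kupffer-like nuclei, the bulk of the others, 15989 and 12356.

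Tek had different ratios in the libraries under most settings. It had 156.6 CPM in endothelial-like and 13.6 in other cells of library 1, a log2 ratio of 3.55 (3.22 to 3.89), but 66.2 and 40.4 in library 2, a log2 ratio of 0.71 (0.42 to 0.98). Tek thus had a lower level in endothelial-like cells and a higher level in other cells of library 2 than in those of library 1. Of the 404 fragments in other cells of library 2, 43.3% lay in pile-ups and a single Kupffer-like nucleus held 114, against 0% in pile-ups among 106 fragments in other cells of library 1. With pile-ups left out, the log2 ratio of Tek in library 2 was 1.51. In nuclei with at least 50% of fragments in peaks it was 1.099. With nuclei thinned to 5000 fragments, those with fewer left out, it was 0.37. Classes taken from each nucleus's own marker fragments gave 2.88, against 2.75 in library 1 under the same setting.

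**Figure D1:**
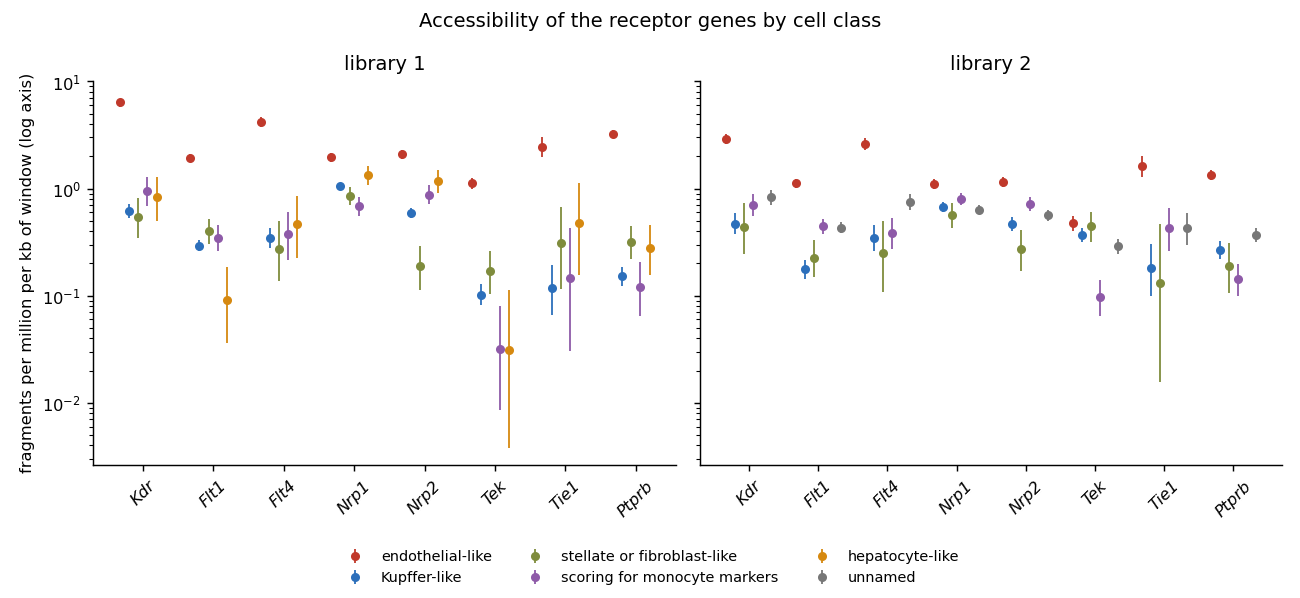
CPM per kb of window (log axis) for each gene and cell class in library 1 (left) and library 2 (right); points are class sums and bars exact 95% Poisson intervals. Endothelial-like cells (red, leftmost of each gene) are highest for all 8 genes in library 1, and in library 2 they lie closest to other classes at Tek, where stellate or fibroblast-like cells reached 0.44 against 0.47. That stellate or fibroblast-like value rests on 42 fragments, of which 30 lay in pile-ups and 35 came from 1 nucleus.

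Per kb of window, the level in endothelial-like cells of library 1 ran from 6.37 CPM per kb at Kdr through 4.21 at Flt4, 3.23 at Ptprb, 2.45 at Tie1, 2.09 at Nrp2, 1.96 at Nrp1 and 1.94 at Flt1 to 1.12 at Tek. In library 2 the order was Kdr at 2.92, Flt4 at 2.61, Tie1 at 1.62, Ptprb at 1.35, Nrp2 at 1.16, Flt1 at 1.12, Nrp1 at 1.11 and Tek at 0.47. The order from Kdr to Flt4 at the top and Tek at the bottom was the same in both, and Nrp2, Nrp1 and Flt1 lay within their counting intervals of each other. In Kupffer-like cells the gene with the highest level per kb was Nrp1, at 1.05 in library 1 and 0.68 in library 2.

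The pattern against single classes was close to that against all other cells. Against Kupffer-like cells alone, 7 of 8 in library 1 and 6 of 8 in library 2 were at least 2-fold higher in endothelial-like cells, beside 9.61% and 10.5% of all genes tested. Against stellate or fibroblast-like cells the counts were 8 of 8 and 6 of 8, beside 7.09% and 8.78% of genes tested. The 2 genes under the limit in library 2 were Nrp1 and Tek in both of these comparisons. At Tek in library 2, pile-ups made up 59.6% of Kupffer-like and 71.4% of stellate or fibroblast-like fragments. Nrp2 was lowest in stellate or fibroblast-like cells, with a log2 ratio of -1.52 (-2.30 to -0.89) over Kupffer-like cells in library 1 and -0.66 (-1.40 to -0.05) in library 2.

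At the gene starts, counted 1 kb on each side, most genes had more fragments per class total in endothelial-like cells, and Nrp1 differed least. Tek had 37 fragments at its start in endothelial-like and 10 in other cells of library 1, and 24 and 8 in library 2, with log2 ratios of 3.99 (3.0 to 5.21) and 3.41 (2.27 to 4.84). In library 2 the ratio at the start of Tek thus lay above that of its whole window, which was higher with pile-ups left out. Both start ratios of Tek rest on fewer fragments than the minimum of 50. In library 2, 17 of 141 endothelial-like nuclei had a fragment at its start. Tie1 had 68 against 9 in library 1 and 60 against 32 in library 2, with log2 ratios of 5.00 (4.06 to 6.26) and 2.78 (2.15 to 3.46). Kdr had 58 against 21 and 51 against 39, and its log2 ratios were 3.59 (2.87 to 4.41) and 2.27 (1.64 to 2.91). Flt1 (2.57 and 2.41) and Flt4 (2.51 and 2.22) were also above 2-fold on the log2 scale in both libraries, Flt4 on 39 fragments in library 1, under the minimum of 50.

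By contrast, the start of Nrp1 had 53 fragments in endothelial-like and 136 in other cells of library 1, and 31 and 90 in library 2. Its log2 ratios were 0.80 (0.30 to 1.26) and 0.36 (-0.29 to 0.95), the lowest of the 8 genes in both libraries. Its start had 19.5 CPM in Kupffer-like and 18.9 CPM in stellate or fibroblast-like cells of library 1, and 0 fragments in the 28 hepatocyte-like nuclei, which allows up to 8.07 CPM. Over the whole window of Nrp1 the hepatocyte-like nuclei had 92 fragments. That is 201.2 CPM (162.2 to 246.7), against 158.9 CPM in Kupffer-like cells of library 1. Nrp2 was intermediate, with log2 ratios at its start of 2.18 (1.57 to 2.78) and 0.75 (0.02 to 1.41). The table of starts used here gives none for Ptprb, and at its fuller gene end it had 33 against 2 fragments in library 1 and 7 against 8 in library 2, too few for a call in either, as for Tek in both libraries. Of all starts tested, 4.52% in library 1 and 4.46% in library 2 were at least 2-fold higher in endothelial-like cells.

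The promoters of 5 of these genes are printed to set the start with the lowest ratio, Nrp1, beside 4 with higher ones. Each line runs 5′ to 3′ from 250 bases before to 50 bases after the annotated start (RefSeq, GRCm38.p6). Capitals mark the ETS motifs CCGGAA and AGGAAG on either strand, which hold the core GGAA bound by ETS factors such as Erg. Places where GGAA follows other letters were not searched and stay in small letters, as in the promoter of Tek. A line without capitals is therefore not a promoter without that core.
Tek promoter (chr4:94739039-94739338, strand plus): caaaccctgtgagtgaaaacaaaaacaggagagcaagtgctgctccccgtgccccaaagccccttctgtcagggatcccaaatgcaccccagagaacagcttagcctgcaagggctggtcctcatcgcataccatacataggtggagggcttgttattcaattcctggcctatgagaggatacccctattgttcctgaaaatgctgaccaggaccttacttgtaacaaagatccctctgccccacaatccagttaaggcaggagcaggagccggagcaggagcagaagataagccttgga
Tie1 promoter (chr4:118489800-118490099, strand minus): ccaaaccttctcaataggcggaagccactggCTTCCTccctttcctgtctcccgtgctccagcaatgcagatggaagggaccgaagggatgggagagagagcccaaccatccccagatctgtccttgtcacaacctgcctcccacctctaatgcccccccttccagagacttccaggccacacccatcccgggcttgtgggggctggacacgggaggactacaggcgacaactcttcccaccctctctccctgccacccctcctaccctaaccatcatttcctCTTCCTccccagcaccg
Kdr promoter (chr5:75978406-75978705, strand minus): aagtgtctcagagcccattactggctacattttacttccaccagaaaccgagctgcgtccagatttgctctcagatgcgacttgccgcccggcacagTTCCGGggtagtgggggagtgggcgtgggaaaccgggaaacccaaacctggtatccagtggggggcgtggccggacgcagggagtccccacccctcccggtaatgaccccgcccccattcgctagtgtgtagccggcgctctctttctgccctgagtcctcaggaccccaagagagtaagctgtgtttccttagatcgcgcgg
Flt1 promoter (chr5:147725962-147726261, strand minus): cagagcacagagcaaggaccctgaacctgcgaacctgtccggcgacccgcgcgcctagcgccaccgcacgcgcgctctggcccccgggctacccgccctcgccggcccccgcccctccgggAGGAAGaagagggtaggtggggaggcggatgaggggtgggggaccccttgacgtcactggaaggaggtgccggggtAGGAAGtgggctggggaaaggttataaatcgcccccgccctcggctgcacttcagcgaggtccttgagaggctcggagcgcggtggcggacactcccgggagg
Nrp1 promoter (chr8:128358823-128359122, strand plus): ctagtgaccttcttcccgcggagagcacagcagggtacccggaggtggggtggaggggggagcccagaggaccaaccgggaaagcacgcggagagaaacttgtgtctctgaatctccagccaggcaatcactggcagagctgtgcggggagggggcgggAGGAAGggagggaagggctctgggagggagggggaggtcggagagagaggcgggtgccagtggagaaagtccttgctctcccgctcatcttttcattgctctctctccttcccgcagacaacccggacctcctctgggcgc
Of the 7 promoters in the table, Kdr held CCGGAA and Flt1, Nrp1 and Tie1 held AGGAAG. Of 32851 promoters of the same length, 14.9% held CCGGAA and 35.4% held AGGAAG. The FOX motif TGTTTAC and the AP-1 motif TGANTCA were in none of the 7, beside 3.65% and 7.81% of all promoters. The GATA motif AGATAA and the SOX motif ACAAAG were in Tek alone, beside 11.2% and 18.7% of all promoters, and the KLF motif CCACCC was in 5 of 7, beside 31.5%. Both strands were searched, the ETS motifs share GGAA after different letters and so cannot match at the same place, and a match of letters is not a binding site. The promoter of Tek had the lowest share of G and C of the 7, at 52.0%, with 3 CpG pairs, against 60.3% to 70.7% and 7 to 37 CpG pairs in the other 6 and medians of 52.7% and 7 over all promoters.

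The receptor genes had many open sites inside the gene, away from its ends. The windows of the 8 genes were cut into 816 tiles of 1 kb, 64 of them within 2 kb of an annotated gene end and 752 internal. Internal tiles held 81.0% of endothelial-like and 76.2% of other fragments in library 1, and 80.2% and 80.6% in library 2. A tile was called open at 20 endothelial-like fragments over both libraries, which 16 gene-end tiles and 52 internal tiles reached. Over all genes, 8.74% of gene-end tiles and 0.955% of internal tiles were open. Of the 52 open internal tiles of the receptor genes, 46 were at least 4-fold higher in endothelial-like than in other cells in each library, beside 36.8% of the open internal tiles of all genes. Of the 16 open gene-end tiles, 9 were, beside 5.68% of all genes. Open tiles were picked by their endothelial-like fragments and so lean towards that class, in the background as well. When a tile was instead called open at 50 fragments over all cells, 22 of 31 internal tiles and 6 of 14 gene-end tiles passed, beside 8.09% and 2.45% over all genes.

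In library 1 the open internal tiles held 43.9% of the endothelial-like and 23.8% of the other cells' fragments in these genes, and in library 2 42.5% and 18.6%. The open gene-end tiles held 15.6% and 18.96% in library 1, and 16.5% and 13.3% in library 2. Tile ratios are ratios of CPM, not set relative to the median gene. The log2 ratio of endothelial-like over other cells in the open internal tiles was 3.35 (3.21 to 3.48) in library 1 and 2.70 (2.56 to 2.85) in library 2. In the open gene-end tiles it was 2.18 (2.00 to 2.36) and 1.82 (1.61 to 2.02). Since open tiles were picked by the same endothelial-like fragments, these ratios and their intervals are a description, and the step between internal and gene-end tiles is not tested by them. In the tiles that were not open it was 1.96 (1.85 to 2.06) and 0.78 (0.67 to 0.89).

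**Figure D2:**
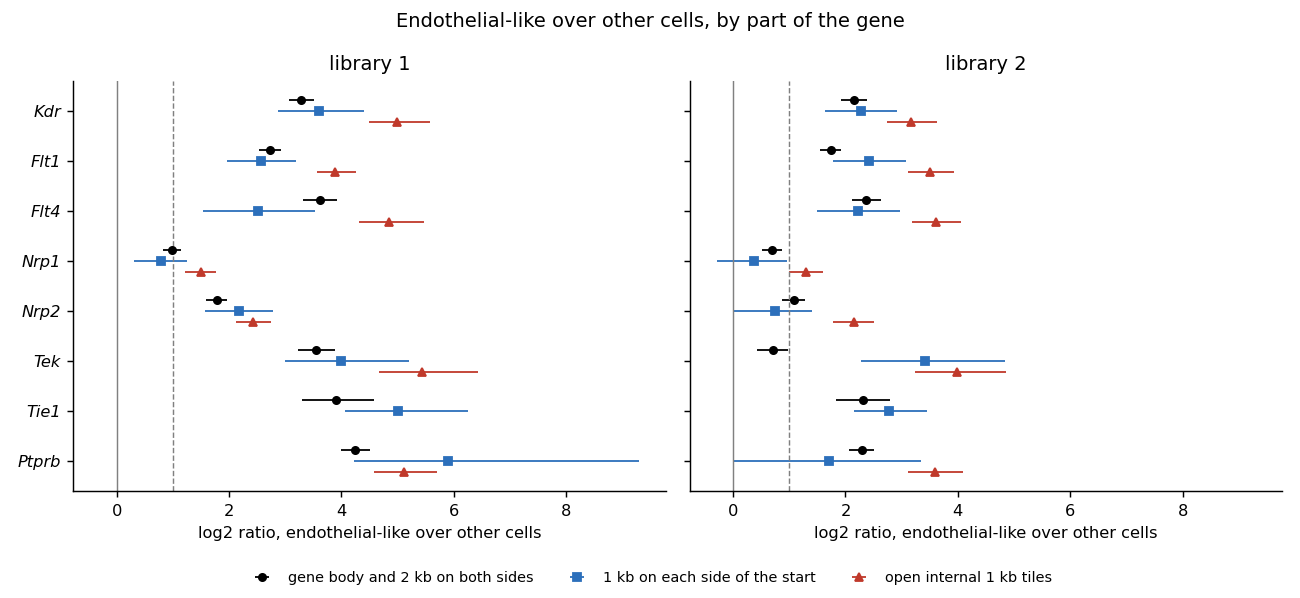
Log2 ratio of endothelial-like over other cells for each gene in library 1 (left) and library 2 (right), over the whole window (black), the gene start (blue, for Ptprb the fuller gene end) and the open internal tiles (red; Tie1 has none); bars are exact 95% intervals, the solid line marks 0 and the dashed line 2-fold. Window and start ratios are relative to the median gene and tile ratios are not. At Tek in library 2 the whole window lies at 0.71 while the start lies at 3.41 and the open internal tiles at 3.99.

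Kdr had 7 open internal tiles, all 7 of them endothelial-high. The largest was a run of 2 tiles at chr5:75961001-75963000 (GRCm38), 16 kb into the gene, with 92 and 50 endothelial-like fragments in libraries 1 and 2 against 11 and 21 in other cells. The Kdr gene lies at chr5:75932827-75979072 on the minus strand, and the tile at its far end, chr5:75933001-75934000, was its fullest single tile over all cells, with 87 and 49 endothelial-like against 135 and 88 other fragments. That tile was shared with Kupffer-like cells (102 and 30 fragments) and fell short of 4-fold, at log2 ratios of 1.62 (1.21 to 2.01) and 1.39 (0.85 to 1.91). The distal end of Kdr was thus the open part of the gene that was least restricted to endothelial-like cells.

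Flt1, at chr5:147561604-147726438 on the minus strand, had 12 open internal tiles, 11 of them endothelial-high. Its fullest site was a run of 2 tiles at chr5:147574001-147576000, 150.5 kb into the gene, with 82 and 43 endothelial-like against 53 and 25 other fragments. The tile at 95.5 kb, chr5:147630001-147631000, had 50 and 17 against 5 and 4, log2 ratios of 5.45 (4.25 to 7.25) and 4.19 (2.70 to 6.35). The tile at 107.5 kb missed the rule in library 2, where it had 3 endothelial-like and 5 other fragments. The open tiles of Flt1 were spread over the whole length of the gene and not gathered near its start.

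Flt4, at chr11:49609679-49652739 on the plus strand, had 8 open internal tiles, all endothelial-high and all within 22.8 kb of its start. The fullest, chr11:49613001-49614000 at 3.8 kb, had 64 and 55 endothelial-like against 10 and 11 other fragments, log2 ratios of 4.87 (3.96 to 6.05) and 4.50 (3.6 to 5.64). These tiles held 58.8% and 62.6% of the gene's endothelial-like fragments, the largest share of open internal tiles among the 8 genes. The 2 tiles at the start of Flt4 held 22 and 38 endothelial-like against 17 and 30 other fragments.

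Ptprb, at chr10:116275502-116389538 with no strand given in the table used here, had 10 open internal tiles, all endothelial-high. They lay in the first 44 kb from its lower-coordinate end except for 1 tile at 79 kb. The fullest single tile, chr10:116301001-116302000, had 57 and 21 endothelial-like against 1 and 6 other fragments. Signal at Ptprb was also the most diffuse, since 57.5% and 59.8% of its endothelial-like fragments lay in tiles that were not open. The log2 ratio in those tiles was 3.76 (3.47 to 4.07) and 1.83 (1.56 to 2.10).

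Tek, at chr4:94739086-94874976 on the plus strand, had 3 open internal tiles, all endothelial-high, at 7.2, 91.2 and 117.2 kb. The tile at 7.2 kb, chr4:94746001-94747000, had 73 and 32 endothelial-like against 3 and 7 other fragments, log2 ratios of 6.64 (5.25 to 9.16) and 4.35 (3.22 to 5.85). The tile at 91.2 kb, chr4:94830001-94831000, had 43 and 14 against 6 and 1. Together the 3 tiles gave log2 ratios of 5.44 (4.66 to 6.44) and 3.99 (3.24 to 4.86), whereas the 136 tiles of Tek that were not open gave 2.46 (2.04 to 2.89) in library 1 and -0.44 (-0.87 to -0.05) in library 2. In library 2, 93.6% of the other cells' fragments at Tek lay in those tiles. Tiles that were not open were defined by few endothelial-like fragments, so part of this contrast is built into the choice of tiles. No tile of Tek held more than 10 fragments of other cells in library 2.

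Tie1, at chr4:118471191-118489849 on the minus strand, had no open internal tile. Its 2 open tiles, chr4:118489001-118491000, spanned the start and had 68 and 60 endothelial-like against 9 and 29 other fragments. They held 74.7% of its endothelial-like fragments in library 1 and 76.9% in library 2. Tie1 was the only gene of the 8 whose signal lay mainly at its start.

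Nrp1, at chr8:128358591-128505476 on the plus strand, mixed sites of different classes within its body. The tile at 28.4 kb, chr8:128387001-128388000, had 76 and 43 endothelial-like against 14 and 13 other fragments, log2 ratios of 4.65 (3.85 to 5.63) and 3.92 (3.03 to 4.98), and the tiles at 78.4 and 91.4 kb were endothelial-high as well. The tile at 132.4 kb, chr8:128491001-128492000, went the other way, with 22 and 27 endothelial-like against 228 and 196 other fragments. Of those, 195 and 118 were from Kupffer-like cells, which gives 13.4 CPM in endothelial-like and 34.9 in Kupffer-like cells of library 1, and 12.7 and 34.6 in library 2. It was the fullest tile of Nrp1 over all cells and, chosen after its values were seen, 1 of 2 tiles among the 816 with at least 50 Kupffer-like fragments and at least 2-fold more CPM in Kupffer-like cells in each library. The other was at 18.2 kb in Nrp2, chr1:62721001-62722000, with 4 and 2 endothelial-like against 45 and 12 Kupffer-like fragments. The window of Nrp1 thus sums endothelial-high tiles, a start with a low ratio, a Kupffer-high tile and 142 tiles that were not open. The tiles that were not open held 53.7% and 58.8% of the other cells' fragments at Nrp1. Their log2 ratios were 0.70 (0.47 to 0.93) and 0.42 (0.16 to 0.66).

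Nrp2, at chr1:62703317-62818692 on the plus strand, had 7 open internal tiles, 4 of them endothelial-high. The fullest, chr1:62724001-62725000 at 21.2 kb, had 71 and 43 endothelial-like against 27 and 38 other fragments. The tile at 17.2 kb, not endothelial-high, was open in Kupffer-like cells too, with 29 and 24 endothelial-like against 80 and 17 Kupffer-like fragments. Neither open gene-end tile of Nrp2 was endothelial-high in both libraries.

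**Figure D3:**
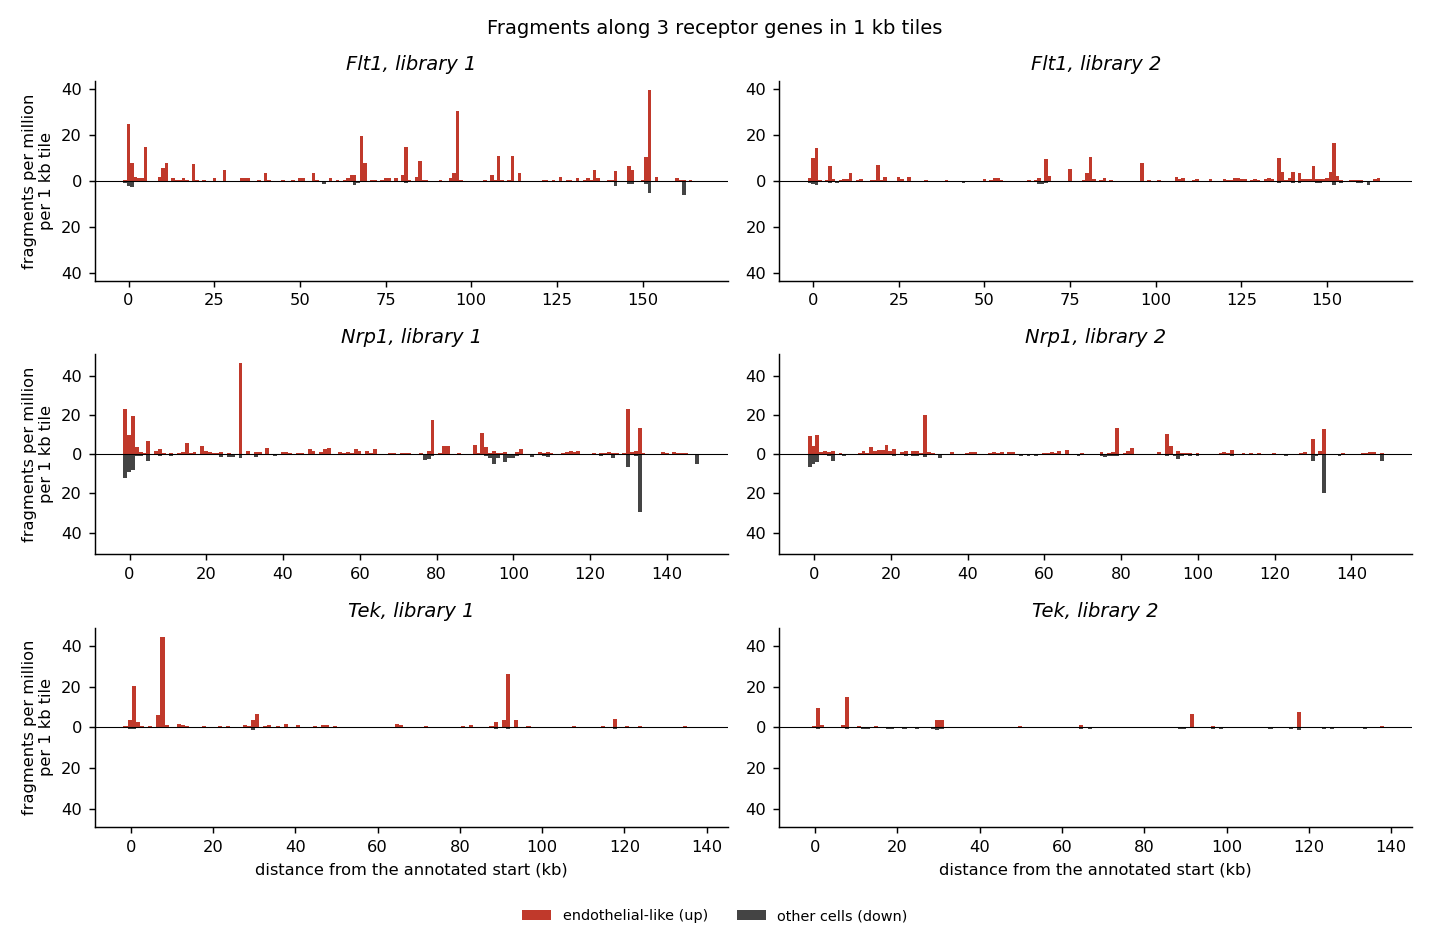
CPM in each 1 kb tile along Flt1, Nrp1 and Tek, with endothelial-like cells drawn upward (red) and all other cells downward (dark), in library 1 (left) and library 2 (right). The horizontal axis is distance in kb from the annotated start, and the left edge of each bar marks the centre of its tile. Flt1 and Tek show endothelial-like peaks, and Nrp1 shows its largest downward peak at the tile centred at 132.4 kb. Other cells had 404 fragments over Tek in library 2, of which 43.3% lay in pile-ups and a single nucleus held 114.

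Fragments shorter than 150 bases, which come from DNA without a nucleosome between the cuts, made up 75.2% (72.8 to 77.4) of endothelial-like fragments in the open internal tiles of library 1 and 72.7% (69.7 to 75.5) in library 2. In the open gene-end tiles the shares were 75.3% and 72.0%, and in the tiles that were not open 58.4% and 58.1%. Other cells had 64.7% and 67.9% in the same open internal tiles and 55.0% and 57.9% in the tiles that were not open. Over the open internal tiles of all genes the endothelial-like shares were 75.9% and 72.9%. In endothelial-like cells the shares at internal and gene-end sites lay within each other's intervals, and both lay above those of the rest of the windows.

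Within endothelial-like cells, library 1 was above library 2 for all 8 genes relative to the median gene, whose own log2 ratio was 0.20. With classes from own marker fragments this common direction was lost, with Tek at -0.78 (-1.12 to -0.44) and Flt4 at -0.014. Ptprb, at 1.06 (0.86 to 1.25), and Tek, at 1.04 (0.74 to 1.35), were at least 2-fold higher in library 1, and these 2 of 8 stand beside 9.75% of all genes past 2-fold in either direction. Both lay near the limit: Tek was at 0.96 with pile-ups masked and 0.86 with nuclei thinned, and Ptprb at 0.97 with all called cells and 0.91 with marker classes. The other 6 ran from 0.39 at Tie1, whose interval of -0.06 to 0.85 reaches the median gene, to 0.92 (0.72 to 1.13) at Kdr. In nuclei with at least 50% of their fragments in peaks, the ratios were between 0.34 at Tie1 and 1.26 at Ptprb, and Tek was at 0.90. In CPM, not relative to the median gene, endothelial-high internal tiles of all genes were higher in library 1 too, at a summed log2 ratio of 0.63 (0.61 to 0.64), against 0.99 (0.86 to 1.12) for the 46 of the receptor genes. Endothelial-high gene-end tiles were at 0.59 (0.56 to 0.62) over all genes, and the 9 of the receptor genes at 0.73 (0.46 to 1.01), an interval that holds the value over all genes. The endothelial-like nuclei had a median of 72.6% of fragments in peaks in library 1 and 54.5% in library 2, and the part of this in the ratios was not tested beyond these values.

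Kupffer-like cells showed no such common direction. Tek was lower in library 1 than in library 2, with 14.3 and 52.1 CPM and a log2 ratio of -2.10 (-2.505 to -1.72), and so was Ptprb, with 17.9 and 31.6 and a log2 ratio of -1.06 (-1.47 to -0.66). These 2 of the 7 genes with enough fragments stand beside 11.3% of all genes past 2-fold in either direction. Of Kupffer-like fragments at Tek in library 2, 59.6% lay in pile-ups, and the log2 ratio was -0.88 without pile-ups and -0.40 with finer clusters (Leiden resolution 1). For Ptprb it was -0.45 with nuclei thinned to 5000 fragments, -0.61 with all called cells, -0.62 with finer clusters, -0.72 in nuclei with at least 50% of fragments in peaks and -0.92 without pile-ups, so neither call held throughout. Flt1, at 0.48 (0.15 to 0.83), and Nrp1, at 0.39 (0.21 to 0.57), were above the median gene without reaching 2-fold.

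**Figure D4:**
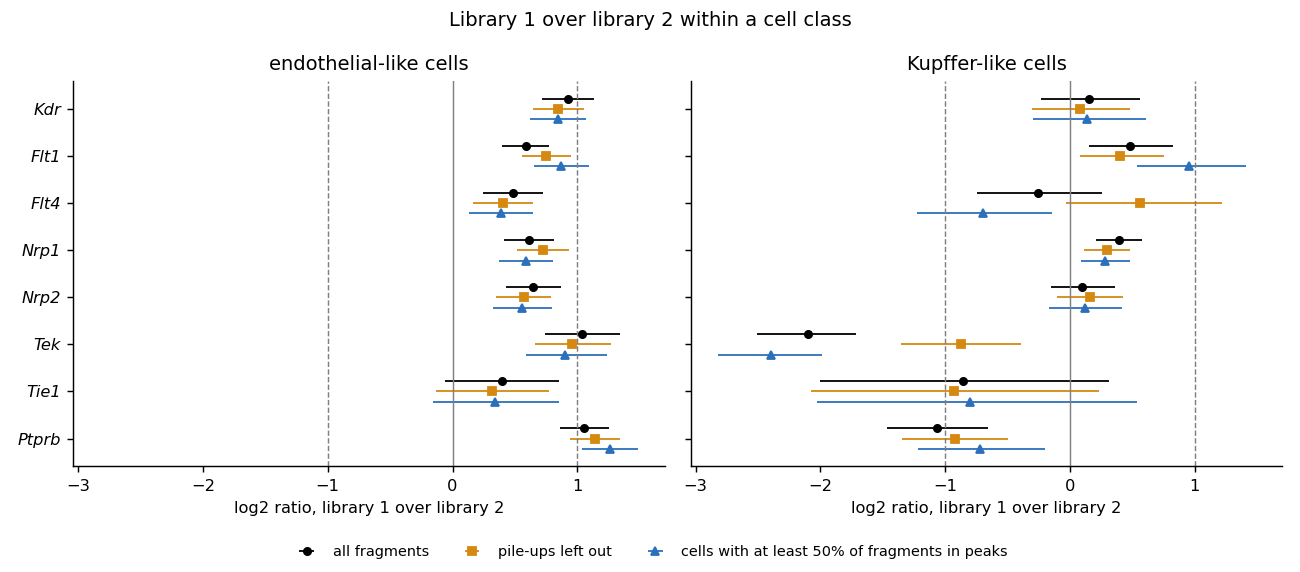
Log2 ratio of library 1 over library 2, relative to the median gene, in endothelial-like (left) and Kupffer-like cells (right), with all fragments (black), with pile-ups left out (orange) and in nuclei with at least 50% of fragments in peaks (blue); bars are exact 95% intervals and dashed lines mark 2-fold. All 8 genes lie above 0 in endothelial-like cells, and Tek in Kupffer-like cells moves to -0.88 from -2.10 when pile-ups are left out.

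The VEGF and angiopoietin ligands did not share the endothelial pattern as a group. Of 8 VEGF and angiopoietin ligands, 1 was at least 2-fold higher in endothelial-like cells of library 1 (Vegfa, log2 ratio 1.84) and 1 in library 2 (Vegfc, 1.02), with 0 and 2 at least 2-fold lower. All genes gave 7.92% and 7.22% higher and 11.4% and 12.5% lower, so 1 of 8 is near that share. The list's median was 0.43 in library 1 and 0.21 in library 2, against 0 by construction for all genes tested. Vegfa stood at 0.10 (-0.34 to 0.49) in library 2 and Vegfc at 0.95 (0.45 to 1.42) in library 1, so neither passed in both. Pgf, which encodes placental growth factor, was the lowest, at -0.86 and -1.35, and Angpt1, which encodes the activating ligand of Tek, was at -0.32 and -1.10.

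Of the 7 class 3 semaphorins, ligands of the neuropilin and plexin complexes, 3 in library 1 and 4 in library 2 were at least 2-fold higher, beside 7.92% and 7.22% of all genes, and 1 and 0 lower, beside 11.4% and 12.5%. Sema3f (2.03 and 1.71) and Sema3g (1.26 and 1.26) passed in both libraries. Among the 5 plexins, which carry the semaphorin signal into the cell, Plxna2 (3.13 and 1.11) and Plxnd1 (1.5 and 1.12) were at least 2-fold higher in both, and no plexin was lower. Of all genes, 3.39% were at least 2-fold higher in both libraries, and 11.4% and 12.5% were lower. Plxna1 (-0.08 and -0.43) and Plxna3 (-0.69 and 0.29) stayed near the median gene.

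Of 23 genes of the signalling cascade below the receptors, 2 were higher and 2 lower in library 1, and 2 and 3 in library 2, with list medians of 0.00 and 0.16. These counts are near the shares of all genes, 7.92% and 7.22% higher and 11.4% and 12.5% lower. Plcg1, the phospholipase that binds activated Kdr, was higher in both, at 1.70 (1.43 to 1.97) and 1.53 (1.25 to 1.81). Nos3, endothelial nitric oxide synthase, was at 1.91 (1.58 to 2.23) in library 1 and 0.85 (0.44 to 1.24) in library 2. Grb2, an adaptor, was lower in both, at -1.12 and -1.04, and Sh2d2a, a T cell adaptor that also binds Kdr, was at -0.28 on 11 endothelial-like fragments and -1.94 on 3.

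Kit, the stem cell factor receptor, was the only one of 5 related receptor kinases that was higher in endothelial-like cells, at 3.34 (2.96 to 3.73) and 2.13 (1.84 to 2.41). Of all genes, 3.39% were at least 2-fold higher in both libraries. Of the other kinases, 3 were at least 2-fold lower in library 1 and 4 in library 2, beside 11.4% and 12.5% of all genes. Kit is also the neighbour of Kdr, 276 kb away on the lower-coordinate side. The macrophage receptor Csf1r (-2.40 and -1.05) and the stellate cell receptor Pdgfrb (-1.91 and -1.72) were lower in both libraries, and Pdgfra was at -0.05 and -1.43. None of the 4 receptor phosphatases of the type of Ptprb was higher than 2-fold, beside 7.92% and 7.22% of all genes. At least 2-fold lower were 2 in library 1 and 3 in library 2, beside 11.4% and 12.5%. Ptprj was the lowest at -2.75 and -2.15, with Ptpro at -1.40 and -1.41.

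Of the 16 genes that flank the receptor genes, 12 had enough fragments in both libraries, and Kit and Ptprr were at least 2-fold higher in both, beside 3.39% of all genes. Ptprr ends 0.57 kb from Ptprb and their windows overlap, so fragments at the shared edge count for both. Ptprr itself had 408 endothelial-like against 181 other fragments in library 1 and 299 against 615 in library 2, log2 ratios of 3.45 (3.19 to 3.71) and 1.18 (0.98 to 1.38). Eqtn, whose window overlaps that of Tek, was at 0.89 and 0.10, and the other flanking genes with enough fragments ran from -0.69 to 0.63 in library 1.

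Across the 10 class-by-library profiles, the gene most like Kdr was Gimap6 (Pearson r of 0.97), followed by Flt4 (0.97). The most alike of Flt1 was Pde2a (0.99), of Ptprb Oit3 (0.98), a marker used here to name the endothelial-like clusters, and of Tie1 Aqp1 (0.97) and Podxl (0.97). Nrp2 was most like Hdc (0.95) and Fcgr2b (0.94), the second also such a marker, and Nrp1 most like 9130019O22Rik (0.93) and Fgd6 (0.93). Tek was most like Nova2 (0.91) and Kpna7 (0.91), and its likeness to the other receptor genes ran only from 0.03 with Nrp2 to 0.72 with Ptprb. Pile-ups were kept in the profiles. At Tek in library 2 they made up 59.6% of Kupffer-like and 71.4% of stellate or fibroblast-like fragments, and likeness without them was not tested. The profiles share libraries and depth, and these values are a description with no test.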

How the data were processed

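Single-nucleus ATAC-seq of 2 mouse liver libraries was used as deposited. Per the submitters' processing notes, the build was GRCm38.p5 and the tools were Signac 0.2.4, Seurat, R 3.6.1, Cell Ranger and Cell Ranger ATAC 1.2.0, with no roles. The authors deposited unique fragments with counts of read pairs, and a table per barcode with counts of fragments and their cell call (1 or 0). Each unique fragment was counted once. Called cells were kept from 1000 fragments in peaks, 15% of fragments in peaks and up to 5% blacklisted.

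Fragments in 5 kb bins, without the bins of the 8 genes, were weighted by TF-IDF, reduced to 30 components (scikit-learn 1.9.0; the first left out) and clustered per library on a graph of 20 neighbours by Leiden at resolution 0.5 (leidenalg 0.10.2). Names came from 12 lists of 102 markers, all matched, which needed a score of 0.5, a lead of 0.25 and 3 detected markers. Doublets were marked by simulated pairs and by an overlap rule (q of 0.01), kept in the main values and left out as an alternative. Pile-ups are bins of 20 kb where a nucleus had 10 fragments or more and 10 times its expected number or more.

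Class sums were scaled to CPM, with exact Poisson intervals. Log2 ratios (0.5 added to both counts) carry exact conditional binomial intervals at 95%, and in gene windows are relative to the median gene. The ratio and its interval were tested on simulated independent Poisson counts, the model the interval assumes. Fragments heaped up in single nuclei were not simulated, so their effect on the intervals was not tested. Gene positions and promoters come from RefSeq (GRCm38.p6), which matched 8 genes and 7 promoters. The members and lists were chosen with earlier results of these data known. Genes named from a list are the 2 highest and 2 lowest by mean ratio with at least 50 fragments in each library. Likeness is Pearson's r of log2(CPM + 1), with up to 3 genes named, and the genes on either side of a member were looked at. Alternatives chosen after seeing the data were both libraries clustered together and tiles called open over all cells.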

Additional observations from a re-analysis of the deposited data

Results flagged for a closer look

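Fragments of barcodes that the authors did not call as cells are used in no comparison above. The 68 open tiles of the receptor genes held 454 such fragments in library 1 and 1120 in library 2, above the limit that a count of 0 allows. That is 237.1 (215.8 to 260.0) CPM of the uncalled fragments in library 1, beside 1187 CPM in endothelial-like and 154.7 CPM in other cells. In library 2 it is 118.1 (111.3 to 125.3) CPM, beside 606.1 CPM in endothelial-like and 115.2 CPM in other cells.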

How the results depend on the processing

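The count of receptor genes at least 2-fold higher in endothelial-like cells was 6 to 8 (library 1) and 4 to 7 (library 2) over the alternatives tried, the lowest at a 4-fold limit. The count of genes past 2-fold between libraries in endothelial-like cells, 2 here, was 1 with all called cells, in nuclei of at least 50% in peaks, with classes from own marker fragments and with pile-ups masked, 4 without doublet-marked cells and 7 where the interval had to exclude the median gene. With classes from own marker fragments the library ratio in endothelial-like cells was -0.78 for Tek and -0.014 for Flt4, and that of Nrp1 in Kupffer-like cells -0.42. Thinned to 5000 fragments, that of Flt1 in Kupffer-like cells was -0.078. The causes were not tested. Open internal tiles numbered 100 at 10 fragments, 23 at 40, 19 with marker classes and 31 over all cells, of which 71, 20, 10 and 22 were endothelial-high, and endothelial-high gene-end tiles numbered 5 at 40 fragments and 4 with marker classes. In windows at gene starts the listed pathway genes at least 2-fold higher numbered 1 in library 1 and 3 in library 2, against 9 and 10 in gene windows, and those lower 5 and 6 against 8 and 12, and with pile-ups masked 6 were lower in library 2. Scaling by fragments near starts changes no ratio relative to the median gene by construction. Only 72 and 38 endothelial-like nuclei were left with marker classes. No paired analysis was possible because the labels give 1 library per group.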
